A study of Homo sapiens with 32 samples.

Results

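The genomic uracil patterns of K562 and of wild type HCT116 were compared, both without drug and without transgene. The comparison rests on 3 of the 32 samples of the series, which are the enriched U-DNA of WT_K562 (1 library) and of WT_HCT116 (2 replicates), chosen by their labels. K562 is a leukemia line, derived from chronic myelogenous leukemia, that carries the BCR-ABL1 fusion gene and expresses fetal globin genes. HCT116 is an epithelial line from a colorectal carcinoma and is deficient in mismatch repair (MMR). K562 was grown in RPMI medium and HCT116 in McCoy's 5A medium, so that line and medium cannot be told apart. The 4 other non-treated HCT116 libraries of the series were set beside the WT libraries where they show the spread within HCT116. They are the 2 replicates of NT_UGI_HCT116, which express UGI, an inhibitor protein of the glycosylase that removes uracil from DNA, after retroviral transduction and sorting, and the 2 replicates of NT_UGI_HCT116MMR, the same in cells complemented with a chromosome 3 that restores MMR. K562 has no replicate, and 1 library against 2 allows no p-value under 0.333 in an exact permutation test (0.143 against all 6 HCT116 libraries). Values are therefore given for every library, with no test, and the difference between HCT116 libraries serves as the measure of spread.

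Uracil enters DNA when a polymerase inserts dUMP in place of dTMP, which pairs with adenine and keeps the coding sense, and when cytosine is deaminated, which leaves a mutagenic mismatch with guanine. Uracil-DNA glycosylase removes most of it and starts base excision repair, so the uracil found at a site is the balance of incorporation, deamination and repair. In U-DNA-Seq, the ΔUNG sensor, a FLAG-tagged glycosylase that binds uracil without cutting it out, pulls down sonicated DNA, which is sequenced beside its input. A region of uracil enrichment is a stretch in which the smoothed log2 ratio of pulled-down to input reads, taken every 100 bp, stayed above a threshold set for that library. A region file thus lists where enrichment passed the threshold, and it cannot tell DNA that a line has lost from DNA that is present without enrichment. The input coverage was not analysed here.

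The K562 file held 132305 regions on chromosomes 1 to 22, X and Y, covering 323 Mb or 11% of the known bases of GRCh38. The WT_HCT116 replicates held 136881 regions covering 331 Mb (11.3%) and 145393 regions covering 328 Mb (11.2%). The lowest region log2 value was 0.33 in K562, 0.33 in HCT116 replicate 1 and 0.25 in replicate 2, so that the total of replicate 2 was reached with a lower threshold. Regions were of the same size class in both lines, with a median length of 1200 bp in K562 and of 1200 and 1100 bp in HCT116, and with the longest regions at 50700, 53000 and 51700 bp. Region bases were AT-rich in both, with a GC content of 33.7% in K562 and of 33.8% and 33.9% in HCT116, against 40.9% of all known bases. Protein-coding genes held 37.4% of region bases in K562 and 36.4% and 36.8% in HCT116, against 44.5% of all known bases. The depth of each library is not recorded in region files, so no counting interval is given.

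The sequences at the centre of the strongest regions give examples of the enriched DNA at the loci below and do not stand for the whole of each locus. Each line gives the 200 bases at the middle of the region with the highest mean log2 value at a locus where the lines differed, read on the plus strand of GRCh38, with runs of 12 or more A or T in capitals. The first pair lies on the short arm of chromosome 9, in the stretches that held no K562 region. The region behind the first line spans chr9:25659701-25666600 and had a log2 value of 0.68 in HCT116 replicate 1 and up to 0.46 in replicate 2. The region behind the second spans chr9:30363001-30388500, with 0.67 in replicate 1 and up to 0.38 in replicate 2. The third comes from the run of lower bins on chromosome 4 that holds FSTL5, from a region beyond the gene at chr4:162289401-162295800 with 0.83 and up to 0.73 in the HCT116 replicates and 0.33 in K562. The fourth comes from a stretch of chromosome X that held K562 regions and none in WT_HCT116 (chrX:29904501-29912700, 0.54 in K562). The last comes from a run on chromosome 13 with larger coverage in K562 (chr13:90235401-90249700, 0.75 in K562, up to 0.55 and 0.49 in HCT116).
chr9:25663001-25663200: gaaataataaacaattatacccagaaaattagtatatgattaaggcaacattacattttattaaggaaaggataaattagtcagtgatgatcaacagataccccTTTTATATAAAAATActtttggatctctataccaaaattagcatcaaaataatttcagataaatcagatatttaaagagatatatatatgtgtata
chr9:30375601-30375800: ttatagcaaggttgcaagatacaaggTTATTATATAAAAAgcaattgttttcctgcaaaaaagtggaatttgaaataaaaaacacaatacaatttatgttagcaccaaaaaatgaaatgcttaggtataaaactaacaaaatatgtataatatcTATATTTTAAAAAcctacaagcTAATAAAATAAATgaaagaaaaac
chr4:162292501-162292700: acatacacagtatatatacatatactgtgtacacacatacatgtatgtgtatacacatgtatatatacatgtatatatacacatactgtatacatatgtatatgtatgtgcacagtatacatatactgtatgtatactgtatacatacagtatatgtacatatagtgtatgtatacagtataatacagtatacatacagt
chrX:29908501-29908700: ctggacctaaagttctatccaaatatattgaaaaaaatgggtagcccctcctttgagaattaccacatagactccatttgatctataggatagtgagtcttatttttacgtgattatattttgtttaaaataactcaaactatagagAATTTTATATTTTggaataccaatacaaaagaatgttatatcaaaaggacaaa
chr13:90242401-90242600: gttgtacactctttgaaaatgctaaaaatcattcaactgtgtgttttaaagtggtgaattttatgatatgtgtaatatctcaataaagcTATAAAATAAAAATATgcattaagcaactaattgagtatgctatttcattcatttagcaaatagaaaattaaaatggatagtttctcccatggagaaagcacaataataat
Between 71.5% and 77.0% of the bases of these windows are A or T. The windows from chromosomes 9, X and 13 hold between 1 and 3 such runs, and that from chromosome 4 holds none. Over all regions, the share of 200-base centres with at least 1 run was 44.2% in K562 (58422 of 132289 windows without unknown bases) and 44% and 43.8% in the HCT116 replicates, against 29.7% of windows taken every 10 kb of the genome. The share in K562 lay within 1 percentage point of those of both replicates.

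At the level of single bases, K562 overlapped a HCT116 replicate about as much as the replicates overlapped each other. The Jaccard index, the bases in both files over the bases in either, was 0.367 between K562 and HCT116 replicate 1, 0.359 between K562 and replicate 2, and 0.373 between the replicates. Random placement of the same totals, without regard to GC content, would give 0.0589, 0.0586 and 0.0594. Across all 6 non-treated HCT116 libraries, the 6 indices with K562 ranged from 0.338 to 0.396 and the 15 indices within HCT116 from 0.343 to 0.428. The ranges overlap.

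Of the region bases of K562, 37.2% (120 Mb) lay in both HCT116 replicates, 17.1% and 16.0% in replicate 1 or 2 alone, and 29.6% (95.6 Mb) in neither. The bases shared by all 3 libraries had the lowest GC content, 32.4%, and the highest mean log2 value in each library, 0.50 in K562 and 0.49 and 0.39 in HCT116. Bases found in K562 alone had a GC content of 35.3% and a mean log2 value of 0.44. Bases found in HCT116 replicate 1 alone (96.8 Mb, 35.5% GC, log2 0.43) and in replicate 2 alone (97.0 Mb, 35.7% GC, log2 0.34) had similar values. Bases in both HCT116 replicates and not in K562 made up 58.7 Mb, of which 3.54 Mb lay on chromosome 9. The other classes that 1 library lacked were about as large, with 55.2 Mb in K562 and replicate 1 alone (1.14 Mb on chromosome 9) and 51.8 Mb in K562 and replicate 2 alone (1.20 Mb on chromosome 9).

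Long regions touched regions of the other libraries far more often than short ones did. Any overlap counted as a touch, so that a longer region is more likely to touch another wherever it lies. The rate at random placement was not computed. In K562, 54488 regions (41.2%) touched a region of both HCT116 replicates and had a median length of 3200 bp, whereas the 38211 regions (28.9%) that touched neither had a median length of 600 bp. Of the 21103 K562 regions of at least 5 kb, 87.2% touched both replicates, and of the 1008 of at least 15 kb, 99.7% did. The corresponding shares of the HCT116 replicates were 86.4% and 86.6% at 5 kb, and 98.7% and 98.7% at 15 kb, counted against K562 and the other replicate.

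The strongest single region of K562 had no counterpart in the WT_HCT116 replicates. It lay at chr4:51104701-51110300 with a log2 value of 1.72, the highest of the 3 libraries, and neither HCT116 replicate had a region there. The next, apart from one region on chromosome 8, was at chr14:16089601-16097100, where K562 had 1.29 and the HCT116 replicates had regions of 1.35 and 1.16. Both positions lie close to centromeres, where the assembly is repetitive and uniquely mapped reads are scarce. Regions of log2 1 or more numbered 7 in K562 and 5 and 2 in the WT_HCT116 replicates, and 3 to 10 in the 4 other non-treated HCT116 libraries. The highest log2 values of those 4 libraries ranged from 1.19 to 2.20, so that neither count nor height set K562 apart. Whether they had a region at the chromosome 4 position was not examined. On the short arm of chromosome 16, a K562 region of 1.02 (chr16:14825601-14831200) overlapped HCT116 regions of up to 0.45 and 0.57.

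The lines parted at the scale of chromosomes. Chromosome 9 was covered by K562 regions to 6.10% of its known bases and by HCT116 regions to 9.25% and 9.12%. Chromosome 13, a gene-poor and AT-rich chromosome, was covered to 16.7% in K562 and to 20.5% and 20.4% in HCT116, and chromosome 14 to 8.87% in K562 and to 11.4% and 11.5% in HCT116. These 3 of 24 chromosomes were at least 2 percentage points below both replicates, and 0 of 24 were that far above. The gaps, K562 minus the nearer replicate, were -3.02, -3.63 and -2.53 points, while the replicates differed by no more than 0.626 points on any autosome. On all 3, K562 was also below every one of the 6 HCT116 libraries, with gaps of -2.66, -2.67 and -2.22 points to the nearest.

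The opposite direction was seen on chromosomes 7 and X. Chromosome 7 was covered to 14% in K562 and to 12.3% and 12.2% in HCT116, a gap of 1.63 points. Chromosome X was covered to 9.28% in K562 and to 6.66% and 7.76% in HCT116, a gap of 1.52 points beside a difference of 1.09 points between the replicates. Without replicate 2, X passed the limit and 1 chromosome was called higher. Chromosomes 3 (12.3% against 13.8% and 13.5%) and 8 (12.3% against 14% and 13.4%) were lower in K562, with gaps of -1.17 and -1.14 points. The highest covered shares in K562 were those of chromosome 4 (19.6%, with 20.6% and 20.3% in HCT116) and chromosome 13, and the lowest, apart from Y, those of chromosome 19 (1.34%, with 1.49% and 1.46%) and chromosome 22 (1.70%, with 1.51% in each replicate). The order of the chromosomes by coverage thus was much the same in both lines, with chromosomes 4 and 13 at the top and 19 and 22 at the bottom.

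**Figure D1:**
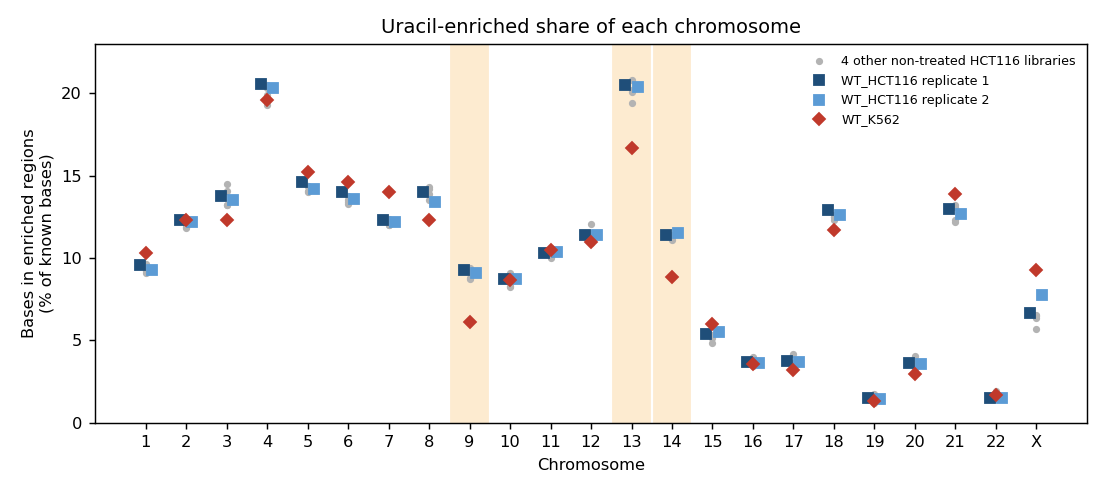
Share of the known bases of each chromosome (1 to 22 and X) in regions of uracil enrichment, in percent, for WT_K562 (red diamonds), the WT_HCT116 replicates (blue squares) and the 4 other non-treated HCT116 libraries (grey). Chromosomes 9, 13 and 14 are shaded, where K562 was at least 2 percentage points below both replicates.

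The chromosome calls depend on the thresholds of the files. With only regions of log2 0.34 or more in every library, the total of HCT116 replicate 2 dropped to 194 Mb beside 318 Mb in K562 and 325 Mb in replicate 1, and 0 chromosomes were called lower and 1, the X, higher. With the strongest regions of each library up to an equal total of 190 Mb, the same chromosomes 9, 13 and 14 were lower, with gaps of -2.13, -3.67 and -2.33 points, and chromosome 7 was higher by 2.09 points. With only regions of at least 5 kb, chromosome 13 was called lower, with a gap of -3.24 points, while chromosomes 9 and 14, at -1.89 and -1.86 points, were not.

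The copy number of a chromosome is one quantity that could move with its covered share. NT_UGI_HCT116MMR carries an added copy of chromosome 3. Chromosome 3 was covered to 14.1% and 14.5% in those libraries, above the 13.2% to 13.8% of the 4 other non-treated HCT116 libraries. Chromosome 12, for which the study names no added copy, was also highest in those libraries. It was covered to 11.5% and 12.1% there and to between 10.9% and 11.4% in the 4 others. The part of copy number in the differences between K562 and HCT116 was not tested.

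In bins of 1 Mb, a size added with its limit after the data were seen, the separation of the lines was clearer than at single bases. Of 2948 bins, K562 differed by at least 8 percentage points from HCT116 replicate 1 in 115 and from replicate 2 in 102, while the replicates differed from each other by that much in 4. The SD of the bin differences was 3.75 and 3.6 points with K562 and 1.81 points between the replicates. Across all 6 non-treated HCT116 libraries, the 6 pairs with K562 had 102 to 133 such bins and the 15 pairs within HCT116 had 3 to 50, so that no pair of HCT116 libraries reached the lowest pair with K562. The 6 pairs with K562 all hold the same single library, so that a trait of that library cannot be told from one of the line. In bins of 100 kb with a limit of 20 points, the 6 pairs with K562 had 489 to 524 bins and the 15 pairs within HCT116 had 130 to 308. The Pearson correlation over 1 Mb bins was 0.954 to 0.960 with K562 and 0.986 to 0.992 within HCT116, a description over bins that share base composition and neighbours. Without chromosome 9, the SD at 1 Mb was 3.25 and 3.15 points with K562 and 1.82 points between the replicates.

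**Figure D2:**
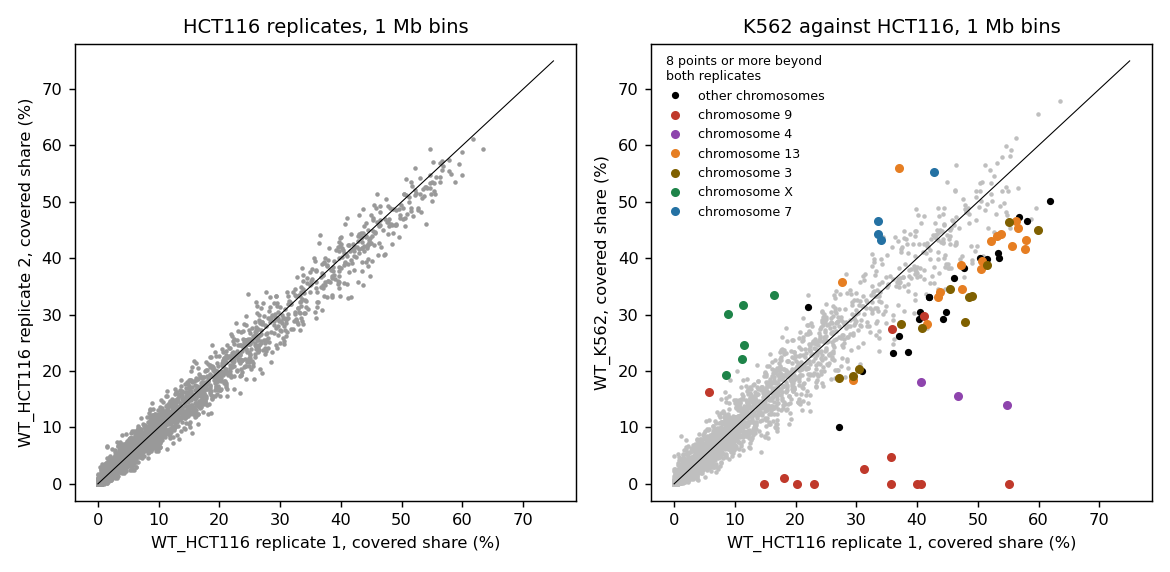
Covered share of each 1 Mb bin (percent of known bases), in WT_HCT116 replicate 2 (left) and in WT_K562 (right) against WT_HCT116 replicate 1, with the line of equality. Colored points on the right are the bins where K562 was at least 8 points beyond both replicates, 14 above and 63 below. The called chromosome 9 bins at the bottom are those at the stretches without K562 regions, and 6 chromosome X bins are called above the line.

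In the same 1 Mb bins, K562 was at least 8 points above both replicates in 14 (0.475%) and below both in 63 (2.14%). All 14 and all 63 lay outside the range of the 6 HCT116 libraries as well, though 9 and 36 bins were beyond all 6 by the full 8 points. The 63 lower bins were unevenly spread, with 16 on chromosome 13, 12 on chromosome 3, 12 on chromosome 9, 6 on chromosome 14 and 5 on chromosome 18. The remaining ones lay on chromosomes 8 (4 bins), 4 (3), 2 (2), 10 (2) and 17 (1). Of the 14 higher bins, 6 lay on chromosome X and 4 on chromosome 7. In bins of 100 kb, K562 was at least 20 points above both replicates in 61 of 29432 bins (0.207%) and below both in 154 (0.523%). Since both replicates must be passed, these counts grow when one is left out, to 193 higher and 297 lower without replicate 1 and to 160 higher and 329 lower without replicate 2. The replicates differed by 20 points or more in 196 bins. The excess of lower bins depends on the threshold, since a common log2 value of 0.34 gave 136 higher and 76 lower, and the strongest regions up to 190 Mb gave 143 and 186. Of the 154 lower bins, 65 lay on chromosome 9, 25 on chromosome 13, 21 on chromosome 4 and 16 on chromosome 3. Of the 61 higher bins, 14 lay on chromosome X, 8 on chromosome 7 and 8 on chromosome 13.

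The called 100 kb bins were AT-rich. In bins of 30% to 35% GC the mean covered share was 46.4% in K562 and 49.6% and 48.2% in HCT116, and 22 bins were higher and 83 lower. In bins of 35% to 37% GC the means were 27%, 27.4% and 26.9%, with 28 higher and 67 lower bins. Above 41% GC no bin was called in either direction. The mean shares in bins of 41% to 44% GC were 2.06%, 2.10% and 2.19%, so that a gap of 20 points had little room there.

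The short arm of chromosome 9 held the largest difference. From chr9:20751601 to chr9:26640800, over 5.89 Mb with 26 protein-coding genes, K562 had no region at all, while the HCT116 replicates had 575 and 573 regions that covered 25.9% and 22.3%. From chr9:28553301 to chr9:31622300, over 3.07 Mb with 1 protein-coding gene, LINGO2, K562 again had none, while the HCT116 replicates had 402 and 456 regions that covered 45.3% and 43.6%. The 4 other HCT116 libraries covered the first stretch to between 21.2% and 26% and the second to between 41.4% and 46.0%. No other stretch of 200 kb or more without K562 regions was covered to 10% or more by both replicates. K562 had 1840 stretches of that length without a region in all, and HCT116 had 1531 without a region of either replicate.

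K562 regions were present on both sides and between the stretches. In the 500 kb before the first stretch, at the leukemia fusion partner MLLT3, K562 covered 8.74% and the HCT116 replicates 12.3% and 10.7%. In the 1.91 Mb between the stretches, which hold the angiopoietin receptor gene TEK among 10 genes, K562 covered 3.12% and HCT116 11.9% and 13.5%. In the 500 kb after the second stretch, K562 covered 13.1% and HCT116 26.3% and 28.2%. K562 was thus below HCT116 on these flanks too, but not at 0.

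**Figure D3:**
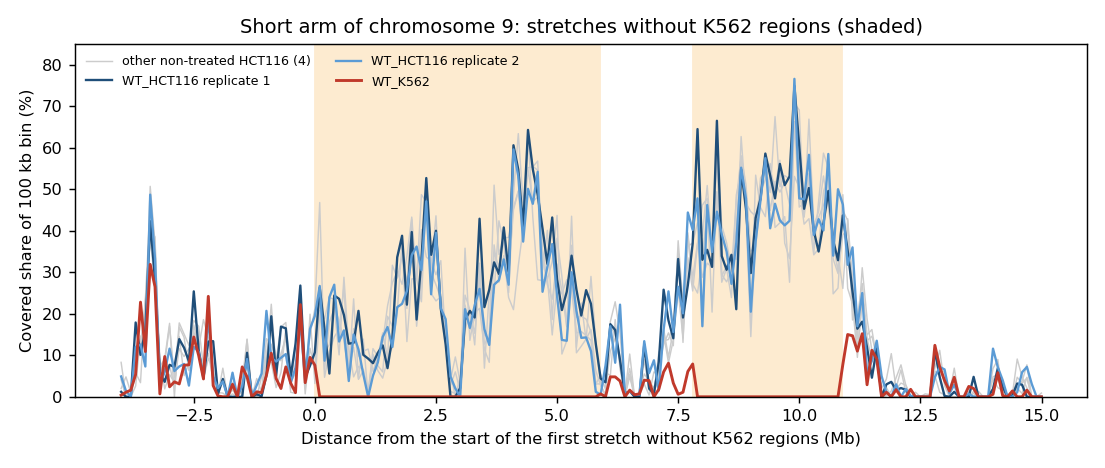
Covered share of 100 kb bins on the short arm of chromosome 9 (percent), against the distance in Mb from the start of the first stretch without K562 regions, for WT_K562 (red), the WT_HCT116 replicates (blue) and the 4 other non-treated HCT116 libraries (grey). K562 stays at 0 in the shaded stretches of 5.89 and 3.07 Mb, of which the HCT116 replicates cover 22.3% to 45.3%.

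The 26 genes of the first stretch include the type I interferon cluster and the cell cycle inhibitors CDKN2A and CDKN2B. CDKN2A encodes p16 and the p53 activator ARF, and K562 is known to have lost it. The window of CDKN2A (gene body and 25 kb on each side, chr9:21967752-21995301 for the gene) was covered to 0% in K562 and to 12.4% and 6.31% in HCT116, and that of CDKN2B to 0%, 17% and 12.2%. The window of MTAP, the methylthioadenosine phosphorylase gene often lost together with CDKN2A, was covered to 0% in K562 and to 9.08% and 1.08% in HCT116. All 21 genes of the list drawn up for this locus were at 0% in K562. In HCT116 replicate 1 their median window share was 19.6%, and in replicate 2 it was 15.7%. The list follows a stretch chosen for having no K562 region, so its direction is set by that choice. With the limit of 20 points, 3 of the 21 were called lower, beside 0.0799% of all protein-coding genes, namely IFNA21 (0% against 29.4% and 30.3%), DMRTA1, a transcription factor gene of the DMRT family (0% against 38.0% and 29.2%), and IFNA4 (0% against 25.3% and 21.8%). The alpha interferon genes are near-identical copies in a tight cluster whose windows overlap, so they are not independent. Whether the DNA of these stretches is absent in the K562 cells used was not tested.

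Chromosome 9 outside the stretches was covered to 6.59% in K562 and to 7.41% and 7.49% in HCT116. The HCT116 replicates held 2.91 and 2.65 Mb of their regions inside the stretches, and 59 of the 65 lower 100 kb bins of the chromosome touched them. Of the 12 lower 1 Mb bins, 10 did, and the other 2 lay over PTPRD, a receptor tyrosine phosphatase gene, at chr9:9000001-11000000 (28.6% in K562, 38.5% and 42.5% in HCT116). The gap of the whole chromosome was -3.02 points, and that of the chromosome without the stretches was less than 1 point in size.

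The longest runs of adjacent lower 100 kb bins were chr9:28800001-31700000 (29 bins, 0.269% in K562 against 45% and 44.3%), chr4:160600001-162400000 (18 bins), chr9:24400001-25800000 (14 bins, 0% against 42.9% and 38.1%, with IZUMO3 and TUSC1), chr9:22900001-23400000 (5 bins, 0% against 36.3% and 32.6%, no gene) and chr9:22400001-22800000 (4 bins, 0% against 33.6% and 25.9%, with DMRTA1).

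The run on chromosome 4 differed in kind from those on chromosome 9, since K562 had regions throughout. Over its 1.80 Mb, K562 covered 15.9% and the HCT116 replicates 55.4% and 53.0%, and the 4 other HCT116 libraries covered 50.4% to 55.0%. It holds 1 protein-coding gene, FSTL5, which encodes a secreted follistatin-like protein of the brain. The window of FSTL5 (gene at chr4:161383897-162164004) was covered to 18% in K562 and to 59.4% and 60.6% in HCT116, the largest gap of any gene called lower, -41.3 points. In the 1 Mb before the run, K562 covered 11% and HCT116 30.6% and 28.1%, and in the 1 Mb after it 16.4% against 26.5% and 23.5%. Among the strongest regions up to 190 Mb in each library, the run was covered to 3.58% in K562 and to 45.2% and 42.6% in HCT116. With a common log2 value of 0.34 the gap was -27.6 points. The chromosome as a whole was covered to 19.7% outside the run in K562 and to 20.3% and 20.0% in HCT116.

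Broad, shallower deficits of K562 lay in gene-poor parts of chromosomes 3, 13, 14 and 18. On chromosome 3, the axon guidance receptor genes ROBO2 and ROBO1 and the adhesion gene CADM2 lay in adjacent lower 1 Mb bins. At chr3:79000001-81000000, over ROBO1, K562 covered 31.6% and HCT116 46.6% and 48.0%. At chr3:82000001-86000000, over CADM2, K562 covered 38.0% and HCT116 51.1% and 50.2%, and in both intervals the NT_UGI_HCT116MMR libraries with the added chromosome 3 were higher still, at 55.1% and 54.9% in the first and 56.0% and 56.9% in the second.

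On chromosome 13, 4 Mb over the neuronal genes SLITRK6 and SLITRK5 (chr13:85000001-89000000) were covered to 39.9% in K562 and to 51.2% and 51.7% in HCT116. Another 4 Mb of the same chromosome with PCDH20, a protocadherin gene, at chr13:61000001-65000000, were covered to 38.8% against 49.6% and 49.4%. On chromosome 18, the cadherin genes CDH7 and CDH19 lay in 4 Mb (chr18:65000001-69000000) covered to 31.7% in K562 and to 44.5% and 42.5% in HCT116. At chr14:42000001-44000000, which holds no protein-coding gene, the shares were 39.9% against 52.5% and 50.3%. At each of these intervals K562 was below all 6 HCT116 libraries. With a common log2 value of 0.34 the gaps of the intervals on chromosomes 3, 13, 14 and 18 were between -5.06 and 0 points, with HCT116 replicate 2 then at its lower total of 194 Mb.

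At the thresholds of the files, the runs with more coverage in K562 were shorter. The 2 longest runs of higher 100 kb bins, 3 bins each, lay on chromosome 13 in DNA without protein-coding genes. At chr13:90100001-90400000, K562 covered 64.9% and HCT116 38.6% and 41.6%, and at chr13:80600001-80900000, 56.5% against 28.1% and 27.7%. The former lies in 2 Mb (chr13:90000001-92000000, reaching into the glypican gene GPC5) that K562 covered to 45.9% and HCT116 to 32.3% and 30.3%, beside the lower interval over SLITRK5 on the same chromosome. The other runs of 2 bins or more were chrX:92300001-92500000 over PCDH11X (48.9% in K562, 7.65% and 17.5% in HCT116), chrX:114600001-114800000 over HTR2C (50.5%, 16.4% and 17.1%), chr7:85200001-85400000 (61.5%, 34.2% and 31.9%) and chr21:13000001-13200000 (35.3%, 6.65% and 8.15%). Chromosome 13 therefore held bins of both directions.

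On chromosome X, 4 Mb at chrX:89000001-93000000 were covered to 27.2% in K562 and to 10.7% and 13.9% in HCT116, with 9.54% to 13.6% in the 4 other HCT116 libraries. This interval holds TGIF2LX, PABPC5 and PCDH11X, a protocadherin gene, and most of it has a near-identical copy on the Y chromosome, so that the removal of ambiguously mapped reads bears on it. The window of PCDH11X was covered to 31.0% in K562 and to 10.6% and 12.5% in HCT116. The window of HTR2C, the serotonin receptor 2C gene, lies outside that interval and was covered to 43.6% in K562 and to 17.1% and 23.5% in HCT116.

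A stretch of chromosome X was the mirror image of those on chromosome 9. From chrX:29515601 to chrX:29993600, over 478 kb, neither WT_HCT116 replicate had a region, whereas K562 had 43 regions with a highest log2 value of 0.54 that covered 16.2%. The NT_UGI_HCT116 replicates covered 0% and 0.251% of it and the NT_UGI_HCT116MMR replicates 0.439% and 1.05%. It covers the 3' part of IL1RAPL1, a very long gene for a synaptic adhesion protein (chrX:28587446-29956718), and reaches past the end of the gene. In the 500 kb before it, within the same gene, K562 covered 22% and HCT116 15.6% and 16.3%, and in the 500 kb after it 12.1% against 7.22% and 9.68%. The only other such stretch, 204 kb over POTEH at chr22:15634901-15838500, lies in duplicated DNA near the centromere. K562 covered 10.1% of it. As for chromosome 9, whether the DNA of the X stretch is absent in HCT116 was not tested.

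A small share of all protein-coding genes passed the limit of 20 points. Of 20033 protein-coding genes, scored by the covered share of the gene body and 25 kb on each side, 16 (0.0799%) were at least 20 points higher in K562 than in both replicates and 16 (0.0799%) at least 20 points lower, beside 68 where the replicates differed by that much. Without replicate 1 the counts were 44 higher and 46 lower, and without replicate 2 they were 55 and 58. These counts rest on 1 pair of libraries, as does the 68 between the replicates. In both pairs with K562 the higher and lower genes together outnumbered the 68. The equal counts do not hold in other settings, with 39 higher and 4 lower at a common log2 value of 0.34, 32 and 6 among the strongest regions up to 190 Mb, and 31 and 9 among regions of at least 5 kb. In all 3 libraries 8811 windows were at 0%. Among the genes called higher, OR51A2 and OR51A4, neighbouring odorant receptor genes on chromosome 11, were covered to 43.1% and 36.4% in K562. The HCT116 replicates covered OR51A2 to 7.83% and 11.7% and OR51A4 to 3.46% and 8.93%. DEFB112, a beta-defensin gene, was covered to 49.1% in K562 and to 14.7% and 19.3% in HCT116. OR5B3 (52.5% against 25.7% and 8.44%), OR2T12 (53.2% against 26.5% and 18.9%), OR1L1 (29.9% against 4.88% and 2.93%) and OR5B2 (34.2% against 7.37% and 9.47%) followed. PPIAL4D, a member of a multicopy cyclophilin family, was covered to 24.2% in K562 and to 0% in both replicates. OR2M7 and OR10Q1 complete the 10 largest gaps.

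The other HCT116 libraries narrowed some of these gaps. For OR51A4 they covered 6.74% to 27.9%, and for OR10Q1 10.7% to 45.3%, so that the latter, at 48.6% in K562, was hardly outside the range of HCT116. For OR1L1, in contrast, they covered 0.781% to 6.05%. With all 6 HCT116 libraries in place of the 2, 4 genes were called higher and 7 lower.

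Among the genes called lower, after FSTL5, were MAB21L1 on chromosome 13, a gene of eye and brain development inside an intron of NBEA (7.22% in K562, 40.4% and 52.9% in HCT116), and LINGO2, a neuronal membrane protein gene of 1276 kb that reaches into the second chromosome 9 stretch (2.22% against 33.6% and 32.5%). The bitter taste receptor genes TAS2R9 (17.8% against 47.9% and 55.3%) and TAS2R10 (21.1% against 53.7% and 47.1%) are neighbours on chromosome 12 and share most of their windows. KIF2B, a kinesin gene on chromosome 17, was covered to 13.4% in K562 and to 48.6% and 41.3% in HCT116. IZUMO3, a sperm protein gene in the first chromosome 9 stretch (0% against 23.9% and 31.6%), and the odorant receptor gene OR4S2 (29.1% against 53.7% and 52.7%) complete the 10 with IFNA21 and DMRTA1. The gene bodies of MAB21L1, KIF2B, OR51A2, OR1L1 and OR2M7 were at 0% in all 3 libraries, so that the window shares of these genes come from the 25 kb on each side.

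Genes covered in one line and at 0% in the other fell into separate classes. Of 20033 genes, 20 (0.0998%) were at 0% in K562 and at 10% or more in both HCT116 replicates, and 17 of them lay in the first chromosome 9 stretch. The 3 others were RIPPLY2 on chromosome 6 (12.9% and 15.3% in HCT116), HSPA2 on chromosome 14 (31.0% and 11.3%) and KRTAP7-1 on chromosome 21 (12.4% and 10.2%). The 4 other non-treated HCT116 libraries covered HSPA2 to between 8.96% and 15.6%. They covered RIPPLY2 to between 0% and 13.1% and KRTAP7-1 to between 0% and 1.97%. At both of these, and at TUSC1 in the chromosome 9 stretch, at least 1 HCT116 library was at 0% like K562. In the opposite direction, 11 genes (0.0549%) were at 0% in both HCT116 replicates and at 10% or more in K562. They were OR4F16, PPIAL4D, RGPD2, GTF2H2C, CTAGE6, FOXD4L4, PRR20E, POTEB3, MBD3L5, MBD3L4 and MBD3L2, and their K562 shares ranged from 10.5% to 24.2%. These names belong to families of near-identical copies in segmental duplications, where the assignment of reads to one copy is uncertain, and the 3 MBD3L genes share their windows. The NT_UGI_HCT116MMR replicates covered OR4F16 to 9.41% and 9.22%, and the second of them covered the MBD3L genes to 7.79% or 7.81%. RGPD2, GTF2H2C, CTAGE6, FOXD4L4 and PRR20E were at 0% in all 6 HCT116 libraries.

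Lists of genes typical of either lineage, and of genes at fragile sites, held no called gene, which at a background of 0.0799% of all genes in each direction says nothing particular about lists of this size. Of 45 genes of the blood lineage list, which holds the globins, erythroid membrane proteins and their transcription factors, 0 were called in either direction, and 15 were at 0% in all 3 libraries. Among these were GATA1, TAL1, KLF1, EPOR and the alpha globin locus genes HBZ, HBA1 and HBA2, which lie in GC-rich DNA. At the beta globin locus, HBB was covered to 16.1% in K562 and to 16.9% and 24.8% in HCT116, HBD to 12.9%, 8.84% and 20.9%, and HBE1 to 3.55%, 12.2% and 5.05%. The fetal genes HBG1 (13.9%, 3.48% and 16.4%) and HBG2 (5.22%, 12.2% and 6.05%) lie within the spread of the replicates or beside it. The annotated bodies of HBG2 and HBE1 span 252 kb and 237 kb, beside 1.59 kb for HBG1. The shares of HBG2 and HBE1 thus describe long stretches of DNA, most of it common to both, and not the globin genes alone. The windows of the fetal genes overlap. The largest gap of the list in favour of K562 was that of KEL, a blood group antigen gene, at 10.9% against 0% and 0.561%. The body of KEL was at 0% in all 3 libraries, so that its share comes from the 25 kb on each side. The 4 other non-treated HCT116 libraries covered its window to between 0% and 5.61%.

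Of 41 genes of the colon epithelium list, 0 were called in either direction (0.0799% of all genes in each), and 23 were at 0% in all 3 libraries. Among the latter were the adhesion gene EPCAM, the keratin genes KRT8 and KRT18 and the intestinal transcription factor genes CDX2 and HNF4A. The secreted disulfide isomerase genes AGR2 (6.98% in K562, 11.3% and 12.9% in HCT116) and AGR3 (25.3%, 21.6% and 6.89%) were covered in both lines. BCR, the 5' partner of the K562 fusion gene, was at 0% in all 3 libraries, and ABL1 was at 0% in K562 and at 0% and 0.445% in HCT116.

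Of 16 genes at common fragile sites, which are very long and prone to breakage under replication stress, 0 were called, again beside 0.0799% of all genes in each direction. LRP1B, a lipoprotein receptor gene, was covered to 41.2% in K562 and to 39.5% and 37% in HCT116, and FHIT, at the most often broken human site, to 5.84%, 5.95% and 5.02%. CNTNAP2 was covered to 26.8% against 20.9% and 21%, and IMMP2L, a mitochondrial peptidase gene, to 34.8% against 29.5% and 26.3%. Both lie on chromosome 7, and K562 was above all 6 HCT116 libraries at both, by 5.72 and 5.27 points. MACROD2 on chromosome 20 was covered to 7.84% against 13.6% and 13.5%. WWOX, an oxidoreductase gene, had the lowest share of the list in each of the 3 libraries (0.688%, 1.43% and 1.18%).

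Odorant receptor genes, a large family of short genes in AT-rich clusters, had many of the called windows. Of 416 measured, 12 (2.88%) were called higher and 1 (0.240%) lower, beside 0.0799% of all genes in each direction. Against all 6 HCT116 libraries, only OR1L1 and OR2T12 kept a gap of 20 points, at 23.8 and 23.3. The gaps of the other receptors called higher fell to between 3.06 and 18.2 points. That of OR4S2, the receptor called lower, fell to -11.7 points. The HCT116 replicates themselves differed by 20 points or more in 21 of the 416, against 68 of all 20033 genes, so that this family made up many of the windows in which the replicates differed too. The median window share of the family was 15.9% in K562 and 14% and 14.3% in HCT116, and the median difference between K562 and the mean of the replicates was 0.476 points. Its mean share, 19.4% in K562 and 17.4% and 17.9% in HCT116, was far above that of all genes, 4.44%, 4.4% and 4.48%. Many of these receptors are close copies of each other, and neighbours share windows.

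**Figure D4:**
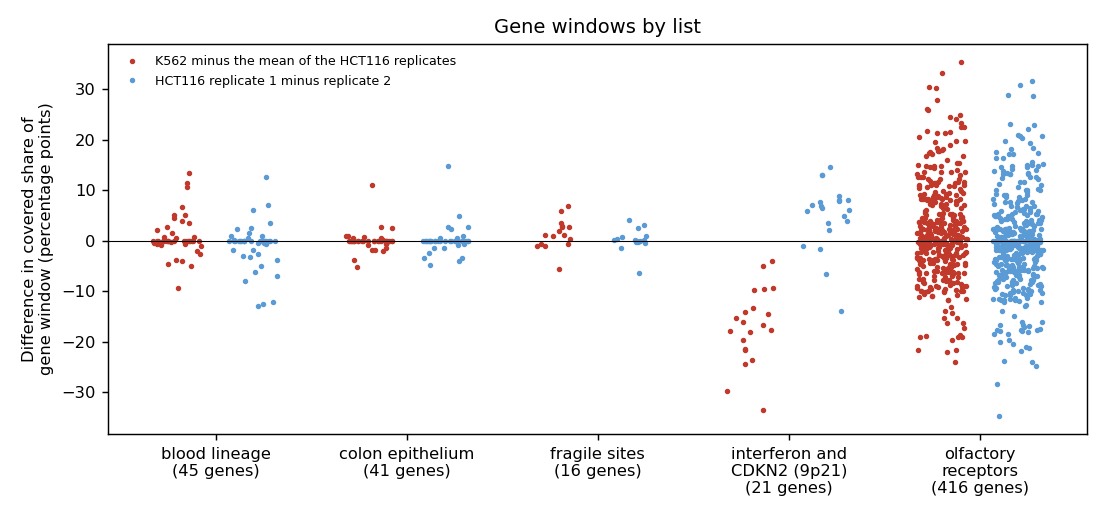
Difference in the covered share of gene windows (gene body and 25 kb on each side, percentage points) for the genes of 5 lists, as K562 minus the mean of the WT_HCT116 replicates (red) and as replicate 1 minus replicate 2 (blue), 1 point per gene. All 21 genes of the chromosome 9 list lie below 0 in red, and the red and blue points spread alike in the blood lineage and colon epithelium lists.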

How the data were processed

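DNA enriched for uracil and its input were sequenced for WT_K562 (1 library) and WT_HCT116 (2 replicates). Per the labels and the study's methods, the authors aligned reads to GRCh38 with BWA 0.7.17-r1194, processed them with SAMtools 1.9-50 and Picard, dropped reads that mapped to several places and blacklisted segments, and computed coverage with deepTools 3.2.1 in bins of 100 bp with smoothing over 5000 bp. The authors deposited, for each library, the regions above a threshold and a log2 value of each, read here as the region's mean log2 of enriched over input coverage, since the column has no heading. The pseudocount of that ratio is not given in the sources used here. The authors tuned thresholds so that replicates and merged data of a sample had similar total lengths, which bears on the overlap between replicates. Whether lines were matched is not given in the sources used here. The region files do not record depth.

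Regions on chromosomes 1 to 22, X and Y (2938 Mb of known bases) were compared by covered share in chromosomes, bins of 100 kb and 1 Mb with at least 50% known bases, and windows of 20033 protein-coding genes (GENCODE release 44, body and 25 kb on each side). K562 was called where it lay beyond both replicates by 2 points (chromosomes), 20 points (100 kb bins, genes) or 8 points (1 Mb bins). The 1 Mb bins and their limit were added after the data were seen. The code of the 100 kb rule was checked on simulated data with planted gaps past the limit. The rule recovers these by construction, so the check gives no error rate for the calls. Named were the 5 longest runs of called bins and the 10 largest gene gaps in each direction (at most 2 per run or overlapping window), up to 5 called genes per list in each direction, the globins, CDKN2A, MTAP, BCR and ABL1, called chromosomes and the 2 highest and 2 lowest. Intervals of adjacent 1 Mb bins, stretches without regions, genes at 0% in one line and the other genes named at them or within lists were chosen after their values were seen. The members and lists were chosen with earlier results of these data known. Alternatives were a common log2 value of 0.34, the strongest regions up to 190 Mb, regions of at least 5 kb, the merged HCT116 file, 6 HCT116 libraries, leaving out a replicate, and other bins, limits and windows. Python 3.11.15, NumPy 2.4.6, pandas 2.3.3 and matplotlib 3.10.9 were used. Input, mock, drug-treated and peak files were not used here.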

Additional observations from a re-analysis of the deposited data

How the results depend on the processing

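No paired analysis was possible because neither the labels nor the methods pair a K562 library with a WT_HCT116 library. Of 99 values under alternatives, 31 stayed within the replicate spread or within 1.5 times the main count and 68 moved. The cause of these moves was not tested, except where the construction shows it (fewer libraries to pass, other limits or bin sizes, unequal totals).

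With a common log2 value of 0.34, the Jaccard index of K562 with HCT116 (0.363 as the mean of both pairs) was 0.332, the log2 ratio of median lengths (0.06) was -1.06, and the GC difference of region bases (-0.09 percentage points) was 0.26. The counts were then 1 chromosome higher and 0 lower, 136 bins higher and 76 lower, and 39 genes higher and 4 lower. With the strongest regions up to 190 Mb, the index was 0.299, the GC difference -0.03, and 1 chromosome, 143 bins and 32 genes were higher and 6 genes lower. With regions of at least 5 kb, they were 0.302, -0.03, 1 chromosome (13) lower, 134 bins higher, and 31 genes higher and 9 lower. With the merged HCT116 file, the index was 0.407, the length ratio -0.12, the GC difference 0.30, and 2 chromosomes, 121 bins and 37 genes were higher and 344 bins and 39 genes lower. Against 6 HCT116 libraries, the length ratio was -0.04, the GC difference -0.02, and 22 bins and 4 genes were higher and 87 bins and 7 genes lower. Small differences in length and GC content thus changed sign between settings.

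Leaving out a replicate gave an index of 0.359 to 0.367, a length ratio of 0.00 to 0.13, a GC difference of -0.13 to -0.05, 0 to 1 chromosomes higher and 3 to 3 lower, 160 to 193 bins higher and 297 to 329 lower, and 44 to 55 genes higher and 46 to 58 lower. On autosomes alone the index was 0.370 and the length ratio 0.18. With each region counted once, the GC difference was -0.16. A limit of 1 point gave 2 chromosomes higher and 5 lower. Bins of 50 kb gave 413 higher and 532 lower, and bins of 250 kb 8 and 38. A limit of 10 points gave 677 bins higher and 764 lower, and one of 30 points 13 and 63. Bins of 1 Mb with a limit of 8 points, a setting added after seeing the data, gave 14 higher and 63 lower. Without chromosome 9, a setting also added then, 89 bins of 100 kb were lower. The gene settings named next were planned. The gene body alone gave 133 genes higher and 77 lower, and flanks of 100 kb gave 0 higher and 7 lower. A limit of 10 points gave 177 genes higher and 128 lower, and one of 30 points 1 and 4.

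Region files hold neither depth nor input coverage, K562 has 1 library, and line, medium and any sequencing platform cannot be told apart. Lost DNA and DNA without enrichment look the same.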

Other observations

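The 2 stretches of chromosome 9 without K562 regions made up part of the bases that both HCT116 replicates held and K562 did not. Of the 58.7 Mb of that class over the genome, 1.72 Mb lay in these stretches and 0.721 Mb in the FSTL5 run of chromosome 4, where K562 had regions of 0.287 Mb beside 0.998 and 0.953 Mb in HCT116.

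Single bins showed larger coverage in K562 near repeats. At chr9:41400001-41500000, K562 covered 55.6% and the HCT116 replicates 1.40% and 7.50%, and at chr16:33700001-33800000 K562 covered 33% and the replicates 0%. Both lie near centromeres, and their mappability was not examined. A bin of IL1RAPL1 upstream of the X stretch, chrX:29000001-29100000, was covered to 43.8% in K562 and to 5.10% and 3.70% in HCT116. Another bin of the same gene, chrX:29400001-29500000, next to the stretch, went the other way, with 9.10% in K562 and 31.1% and 32.2% in HCT116.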
